A study of Homo sapiens with 12 samples.

Results

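After depletion of PHF19 in K562 cells, 6005 MTF2 peaks lay away from annotated transcript starts at positions where neither MTF2 nor PHF19 had a peak in control cells. K562 is a human chronic myeloid leukemia (CML) cell line with erythroid features that carries the BCR-ABL fusion. The cells had been infected with a pLKO.1 lentivirus and selected with puromycin as a mixed population. sh#2 cells carried a short hairpin RNA (shRNA) against the long isoform of PHF19, and shCT cells carried the empty vector. sh#1 cells, which enter here only through the expression values, carried a different shRNA against PHF19. Expression came from RNA sequencing (RNA-seq) of shCT, sh#1 and sh#2 cells, pooled to a single mean per gene. Genome-wide binding had been measured by chromatin immunoprecipitation and sequencing (ChIP-seq), with fly chromatin and a fly histone antibody added as a spike-in. The MTF2 peaks of sh#2 cells, the MTF2 peaks of shCT cells and the PHF19 peaks of shCT cells each came from 1 library, so no difference between conditions has a replicate check and none was tested. The comparison addresses where MTF2, a homolog of PHF19, binds when PHF19 is reduced.

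The members were selected on the peak calls of these 3 lists. A peak of the sh#2 MTF2 list was taken when it shared no base with any peak of either shCT list and lay wholly more than 2.5 kb from every GENCODE transcript start on GRCh37. The rule took 6005 of the 18287 peaks in the list (32.8%, 95% exact binomial interval 32.2 to 33.5%), which held 21.7% of the bases the list covered. Their absence from both shCT lists is therefore the rule itself and not a finding. Of the other peaks in the sh#2 list, 3094 were also found only after depletion but lay at promoters, that is, within 2.5 kb of a transcript start. A further 4479 were distal and 4106 were at promoters among those that overlapped an MTF2 peak of shCT cells, and 603 overlapped a PHF19 peak alone. The intervals of shares take in counting error and nothing else, and peaks of 1 library are not independent replicates.

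MTF2 and PHF19 are Polycomb-like proteins, accessory subunits of Polycomb repressive complex 2 (PRC2), which methylates histone H3 on lysine 27 at silenced genes. Polycomb-like proteins recognize methylated histone H3 through a Tudor domain and bind unmethylated CpG-rich DNA through a winged-helix domain. In mammals PRC2 is best known at CpG islands, stretches of GC-rich DNA with many CpG dinucleotides that overlap the promoters of developmental genes.

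The lists differed in ways that touch every count of members. In sh#2 cells the 18287 MTF2 peaks took up 63.2 Mb, with a median of 2598 bp each. In shCT cells the 12502 MTF2 peaks took up 29.0 Mb with a median of 1780 bp each, and the 5621 PHF19 peaks took up 11.5 Mb. The study's methods keep only PHF19 peaks above a minimum of tags, which the list does not give, so the PHF19 list was used whole. Without the PHF19 list the rule would have taken 6360 peaks. The smallest score was 50 in each list. The deposited lists give no tag counts, so depth is unknown. From these lists, more binding after depletion and a more sensitive library cannot be told apart. The paper reports a stronger MTF2 signal after depletion, with signal scaled by the fly spike-in, but the lists do not hold that signal. The peak names in the sh#2 MTF2 list carry the tag sh4, which the labels do not explain, and the list goes by sh#2 here after its label. The header of the PHF19 list names the same tag beside shCT, so the sample that served as its background is not certain. Among distal sh#2 peaks, 6005 of 10839 (55.4%, interval 54.5 to 56.3%) met no peak of either shCT list, a share the rule defines. In the other direction, 1536 of 7479 distal MTF2 peaks of shCT cells (20.5%, interval 19.6 to 21.5%) met no MTF2 peak of sh#2 cells.

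The sequence under the members is shown for the 4 with the highest score and for a pair at the median score, as the central 300 bp of each peak on the plus strand of GRCh37, 5′ to 3′. The capitals mark each CpG, the dinucleotide that Polycomb-like proteins can bind. Each sequence is named by the protein-coding gene with the nearest start. The TMEM266 sequence is chr15:76452448-76452747, the STX8 sequence is chr17:9135413-9135712, the TRIM33 sequence is chr1:114841597-114841896 and the PHF21B sequence is chr22:45472819-45473118. The pair at the median score is the TNS3 sequence, chr7:47340884-47341183, and the TRARG1 sequence, chr17:1204102-1204401.
TMEM266: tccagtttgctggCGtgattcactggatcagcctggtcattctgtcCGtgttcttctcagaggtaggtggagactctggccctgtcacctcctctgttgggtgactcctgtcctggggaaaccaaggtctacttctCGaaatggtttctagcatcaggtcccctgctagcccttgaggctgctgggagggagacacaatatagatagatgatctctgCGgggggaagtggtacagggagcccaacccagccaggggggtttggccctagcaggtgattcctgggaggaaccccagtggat
STX8: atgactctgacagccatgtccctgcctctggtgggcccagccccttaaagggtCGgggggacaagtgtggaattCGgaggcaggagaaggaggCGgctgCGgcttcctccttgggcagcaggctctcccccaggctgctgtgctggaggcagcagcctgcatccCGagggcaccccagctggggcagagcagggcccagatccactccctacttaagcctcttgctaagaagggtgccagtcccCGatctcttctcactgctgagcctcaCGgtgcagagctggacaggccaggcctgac
TRIM33: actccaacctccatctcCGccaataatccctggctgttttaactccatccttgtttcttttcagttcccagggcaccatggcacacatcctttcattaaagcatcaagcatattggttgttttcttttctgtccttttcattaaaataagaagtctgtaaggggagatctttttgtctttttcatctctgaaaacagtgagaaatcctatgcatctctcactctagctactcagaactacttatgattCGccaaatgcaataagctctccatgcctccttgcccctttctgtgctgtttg
PHF21B: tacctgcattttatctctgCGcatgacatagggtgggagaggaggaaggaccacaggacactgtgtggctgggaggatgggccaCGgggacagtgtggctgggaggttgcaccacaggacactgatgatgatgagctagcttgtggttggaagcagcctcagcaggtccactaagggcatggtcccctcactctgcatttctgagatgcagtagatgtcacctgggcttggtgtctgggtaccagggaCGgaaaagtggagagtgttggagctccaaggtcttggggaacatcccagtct
TNS3: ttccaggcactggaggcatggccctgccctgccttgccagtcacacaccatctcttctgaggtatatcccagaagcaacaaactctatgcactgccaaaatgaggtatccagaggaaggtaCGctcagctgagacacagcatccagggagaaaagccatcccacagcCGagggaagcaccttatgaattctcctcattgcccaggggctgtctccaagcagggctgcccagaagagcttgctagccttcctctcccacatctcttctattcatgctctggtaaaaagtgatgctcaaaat
TRARG1: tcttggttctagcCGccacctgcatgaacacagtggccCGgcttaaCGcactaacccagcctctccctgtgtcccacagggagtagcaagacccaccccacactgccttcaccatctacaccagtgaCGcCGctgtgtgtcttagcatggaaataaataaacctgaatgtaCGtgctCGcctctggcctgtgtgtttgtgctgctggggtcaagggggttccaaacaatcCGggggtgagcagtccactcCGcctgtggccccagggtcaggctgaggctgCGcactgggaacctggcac

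These sequences held between 2 and 10 CpG, against a median of 5 over all members. The TMEM266 sequence held 4 CpG and was 56.3% GC, the STX8 sequence held 7 at 64.3% GC, the TRIM33 sequence held 2 at 41.3% GC and the PHF21B sequence held 3 at 56.0% GC. At the median score the TNS3 sequence held 2 CpG at 52.3% GC and the TRARG1 sequence held 10 at 59.0% GC. The 4 members with the highest score thus held from 2 to 7 CpG at their centres, on both sides of the median.

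Peaks found only after depletion, distal or at promoters, were narrower and scored lower than peaks shared with shCT. A wide peak meets a control peak or a transcript start more readily, so the rule itself favors narrow members. Its part in the differences of width and score was not tested. The score, which the authors' peak caller MACS gave each peak, had a median of 75.6 in the members (quartiles 60.4 and 109), 81.7 in promoter peaks found only after depletion, 178 in distal peaks shared with shCT and 273 in promoter peaks shared with shCT. A score under 100 was held by 4222 members (70.3%, interval 69.1 to 71.5%), against 63.9% of promoter peaks found only after depletion (interval 62.2 to 65.6%) and 24.2% of the distal shared peaks (interval 22.9 to 25.4%). The median of the whole sh#2 list was 112, and 1416 members (23.6%) reached it, against 30.1% of promoter peaks found only after depletion and 71.1% of the distal shared peaks. The median width was 1921 bp in the members (quartiles 1385 and 2795 bp), 2068.5 bp in promoter peaks found only after depletion and 3457 bp in the distal shared peaks. The members ran to 15310 bp at the widest and scored between 50.01 and 807. The rule cut through peaks that lay close to its limits. The member nearest to a transcript start lay 2501 bp from it (chr11:33427263-33428720, score 110), and the excluded peak furthest from one lay at 2497 bp (chr14:69801736-69802889, score 68.0). The member nearest to a control peak was separated from it by 1 bp (chr15:75532860-75534153, score 72.8), and the excluded distal peak with the least overlap shared 1 bp (chr19:3858695-3862444, score 360).

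**Figure D1:**
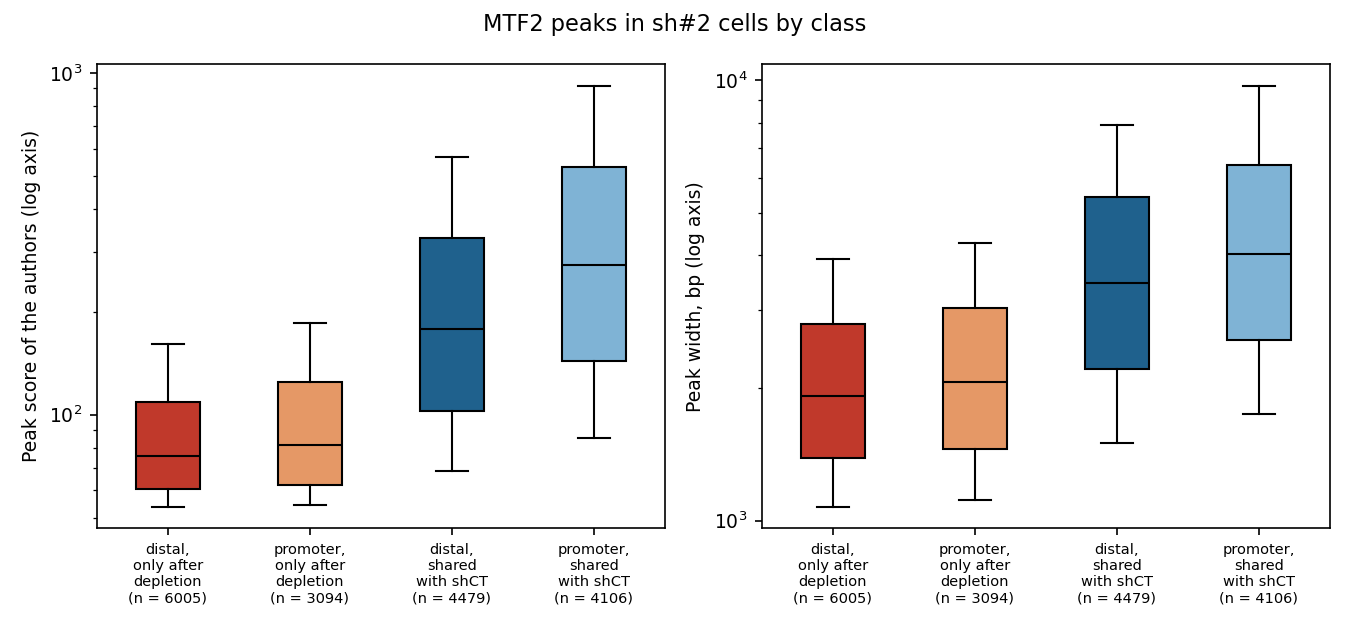
Score (left) and width in bp (right) of the MTF2 peaks of sh#2 cells by class, both on log axes. Boxes give the quartiles with the median line and whiskers the 10th and 90th percentiles, and the members, leftmost, have the lowest median of the 4 classes in both panels (75.6 in score and 1921 bp in width). The rule that picks the members itself favors narrow peaks.

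Members with higher scores were wider but lay at similar distances from genes. The 1501 members with the highest scores (109 to 807) had a median width of 2937 bp, and the 1503 with the lowest (50.01 to 60.4) one of 1445 bp. The median distance to a transcript start was 12655 bp in the highest-scoring members and 12149 bp in the lowest. Intergenic members made up 39.8% of the highest-scoring and 42.9% of the lowest-scoring of these.

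The 5 members with the highest score stood in different surroundings. The strongest, chr15:76448546-76456650, spanned 8105 bp with a score of 807, ranked 743 of the whole sh#2 list, and lay only 229 bp from an MTF2 peak of shCT cells. It overlapped an exon of TMEM266, which encodes a transmembrane protein with a voltage-sensor domain, and lay 17177 bp from the nearest transcript start of any gene. The next, chr17:9132735-9138391, scored 658 in an intron of NTN1, which encodes the axon guidance protein netrin-1, at 21214 bp from the nearest MTF2 peak of shCT cells. The third, chr1:114838501-114844992, scored 629 between genes. It was the furthest of the 5 from an MTF2 peak of shCT cells, at 128772 bp, and lay 95468 bp from the start of TRIM33, a chromatin-associated ubiquitin ligase. The fourth, chr22:45471187-45474750, scored 614 at 65301 bp from the start of PHF21B. The fifth, chr5:72593495-72599933, scored 573 at 5631 bp from an MTF2 peak of shCT cells, and its central 300 bp held 17 CpG, more than any of the other 4.

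Width and score parted in the widest members. The widest, chr12:130930632-130945941, covered 15310 bp in RIMBP2, which encodes a presynaptic scaffold protein, with a score of 393. The next, chr1:7520768-7534196, covered 13429 bp in CAMTA1, a calmodulin-binding transcription activator, with a score of 78.7. The member at chr21:10713696-10727068, 13373 bp wide with a score of 92.9, lay 263806 bp from the nearest protein-coding start, that of the testis gene TPTE, and 308 bp from an MTF2 peak of shCT cells. Its central 300 bp held 1 CpG at 35.3% GC. No filter for repetitive sequence was applied to the lists here, so whether this peak reflects binding was not tested. A member of 12756 bp, chr7:155670690-155683445, scored 108 at 65533 bp from the start of SHH, the Sonic hedgehog morphogen. The fifth, chr21:47240439-47251818, covered 11380 bp of PCBP3, which encodes an RNA-binding protein, with a score of 338.

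Many members lay near binding that shCT cells already had. The median distance from a member to the nearest MTF2 peak of shCT cells was 11028 bp, edge to edge (quartiles 3251 and 34831 bp). Within 1 kb of such a peak lay 616 members (10.3%), within 10 kb 2832 (47.2%, interval 45.9 to 48.4%) and within 100 kb 5323 (88.6%, interval 87.8 to 89.4%). Promoter peaks found only after depletion lay further out, with a median of 15714 bp, 41.8% within 10 kb (interval 40.1 to 43.6%) and 79.0% within 100 kb (interval 77.5 to 80.4%). PHF19 peaks of shCT cells, which are fewer, were more distant, at a median of 85814 bp from a member, and 1058 members (17.6%) lay within 10 kb of one. Other MTF2 peaks of the same sh#2 cells lay within 1 kb of 1929 members (32.1%) and within 10 kb of 73.6%.

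**Figure D2:**
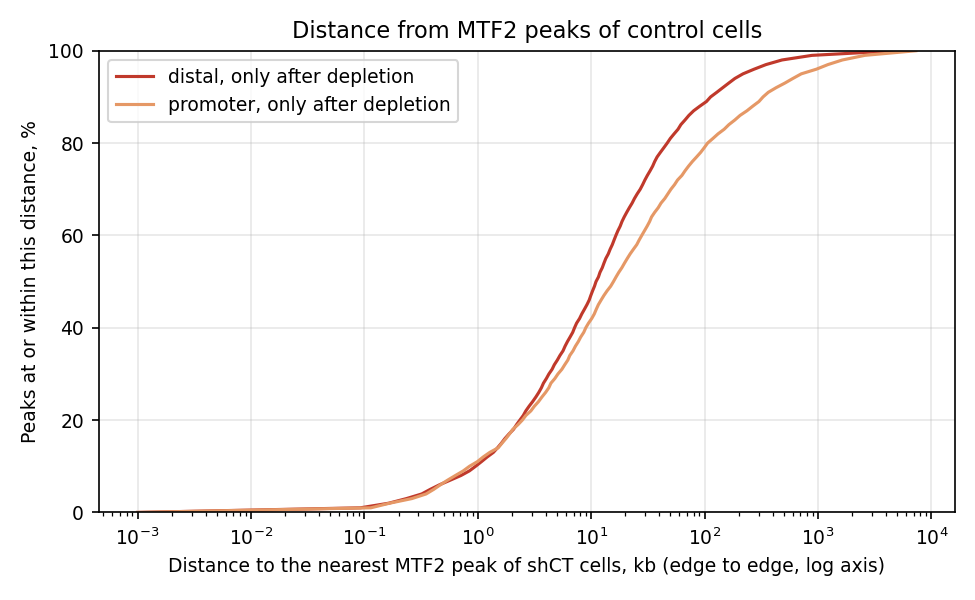
Share of peaks (%) at or within a given distance, in kb on a log axis and edge to edge, of the nearest MTF2 peak of shCT cells. The line of the members reaches 47.2% at 10 kb and 88.6% at 100 kb, above the line of the promoter peaks found only after depletion (41.8% and 79.0%).

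Members near control binding and members far from it differed modestly in score and composition. Those within 10 kb of an MTF2 peak of shCT cells (2832) had a median score of 78.4 and a median GC content of 51.0%. Those at 10 to 100 kb (2491) had 74.8 and 50.3%, and those beyond 100 kb (682) had 70.8 and 49.3%. Island-like centres ran the other way, at 2.82% of the members within 10 kb, 3.65% of those at 10 to 100 kb and 6.89% of those beyond 100 kb, where island-like means at least 50% GC and a ratio of observed over expected CpG of at least 0.6 in the central 300 bp. The share that overlapped a protein-coding gene was 51.5% within 10 kb, 48.2% at 10 to 100 kb and 40.2% beyond 100 kb.

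Past the 2.5 kb that the rule asks for, the members lay at about the same distance from transcript starts as the distal shared peaks. The median distance was 12421 bp in the members and 12222 bp in the distal shared peaks. More than 10 kb from any start lay 58.8% of the members (interval 57.6 to 60.1%) and 58.2% of the distal shared peaks (interval 56.8 to 59.7%), and more than 100 kb lay 59 members (0.983%) and 47 distal shared peaks (1.05%). The most remote member lay 317146 bp from a start. Within genes, 2428 members touched only introns (40.4%, interval 39.2 to 41.7%), 1069 touched an exon (17.8%, interval 16.8 to 18.8%) and 2508 (41.8%) were intergenic. The distal shared peaks had 32.2% in introns (interval 30.9 to 33.6%) and 23.1% at exons (interval 21.8 to 24.3%). They were also wider, as given above, and the part of width in these shares was not tested.

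The members were GC-rich against the genome but mostly not CpG islands. GC content in the central 300 bp had a median of 50.3% (quartiles 45.3 and 56.0%) in the members, 53.7% in promoter peaks found only after depletion, 51.7% in distal shared peaks, 56.7% in promoter shared peaks and 40% over 9451953 tiles of 300 bp across the genome (quartiles 34.3 and 46.7%). The median ratio of observed over expected CpG was 0.288 in the members, 0.347 in promoter peaks found only after depletion, 0.317 in distal shared peaks, 0.403 in promoter shared peaks and 0.174 over the tiles. A member held a median of 5 CpG (quartiles 3 and 8), a distal shared peak 6 and a tile 2. Island-like centres made up 218 members (3.63%, interval 3.17 to 4.13%), 588 promoter peaks found only after depletion (19.0%), 261 distal shared peaks (5.83%, interval 5.16 to 6.55%) and 1.57% of the tiles. No CpG at all was found in 1.80% of the members, against 17.3% of the tiles. The median GC content of the members was below that of the distal shared peaks on 19 of 23 chromosomes.

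CpG density peaked at the centre of the members, though less than in the other classes. It averaged 2.00 CpG per 100 bp within 500 bp of the centre and 1.62 at 4 to 5 kb, a ratio of 1.24. In distal shared peaks these were 2.36 and 1.76, a ratio of 1.34, and in promoter peaks found only after depletion 3.32 and 1.65, a ratio of 2.01. The flanks of the members were themselves above the mean of the genome tiles, 0.984 CpG per 100 bp, and their GC content was 50.3% at the centre against 48.2% at 4 to 5 kb.

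**Figure D3:**
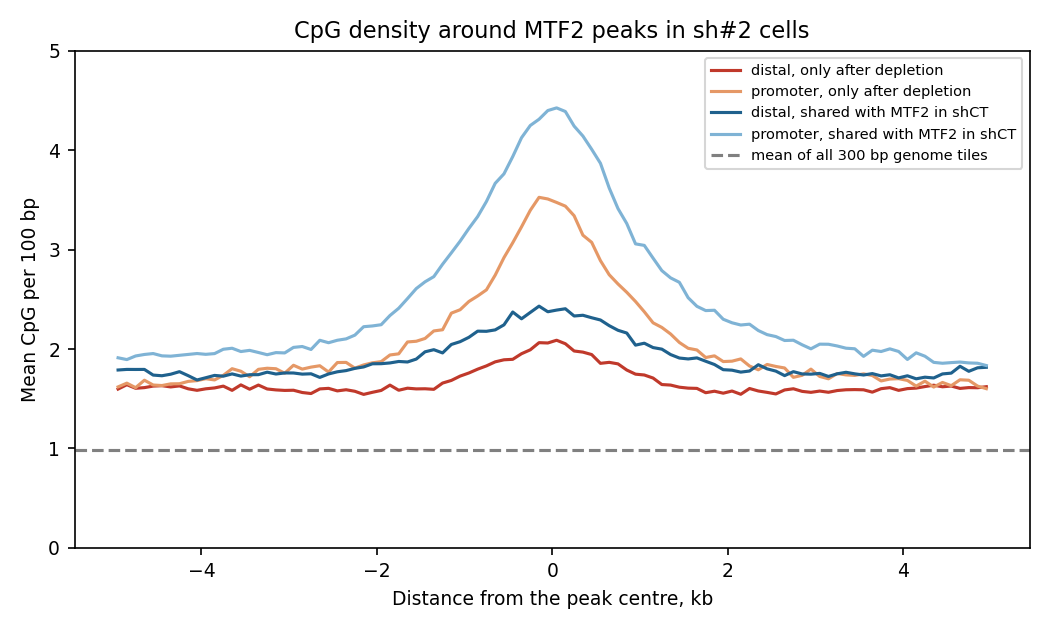
Mean CpG per 100 bp against the distance from the peak centre in kb, for the 4 classes of MTF2 peaks in sh#2 cells. The members form the lowest peak, near 2.00 at the centre, and all classes lie above the dashed mean of the genome tiles (0.984).

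Motifs that hold a CpG were found in more members than genome tiles, and the AT-rich GATA motif in fewer. The tiles were not matched to the members in GC content (median 40% against 50.3%). The part of GC content in these differences was not tested. All motifs were searched on both strands in the central 300 bp, and a match is a description of letters, not of a factor. CGCG, the densest CpG motif searched, was found in 797 members (13.3%, interval 12.4 to 14.2%), 17.2% of distal shared peaks, 29.1% of promoter peaks found only after depletion and 5.01% of the tiles. AGATAA, a motif of GATA factors, which drive erythroid genes, was found in 11.5% of the members (interval 10.7 to 12.3%), 10.7% of distal shared peaks (interval 9.78 to 11.6%) and 21.2% of the tiles. TGANTCA, a motif of AP-1, was found in 7.79% of the members, 7.30% of distal shared peaks and 9.31% of the tiles. CACGTG, an E-box, was found in 5.58% of the members, 6.41% of distal shared peaks and 2.74% of the tiles. CCGGAAG, an ETS motif, was found in 1.88% of the members, 2.14% of distal shared peaks and 0.707% of the tiles. GGGGCGGGG, a GC box, was found in 0.949% of the members, 1.43% of distal shared peaks, 3.46% of promoter peaks found only after depletion and 0.431% of the tiles. CGCG, the E-box, the ETS motif and the GC box hold CpG and so count part of the same letters as the CpG density. A CTCF motif was found in 10 members, or 0.167%, and in 0.0583% of the tiles. A GA repeat (5 GA units in a row) was found in 1.08% of the members and 1.09% of the tiles, and a CA repeat (5 CA units) in 1.68% of the members and 2.09% of the tiles.

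Members were spread unevenly over the chromosomes. There were 2.12 members per Mb of known sequence over all chromosomes, against 1.58 distal shared peaks. Chromosome 22 held the most, 7.22 per Mb, followed by chromosome 17 with 5.28, chromosome 19 with 4.78 and chromosome 20 with 4.55. The fewest were on the X chromosome, with 0.265 per Mb (40 members), and on chromosome 3, with 0.909. Distal shared peaks were also densest on chromosome 22, with 4.27 per Mb, and chromosome 17, with 3.97. Over all chromosomes there were 1.34 members per distal shared peak, so members would be the more numerous on most chromosomes from the totals alone. Members outnumbered distal shared peaks on 20 of 23 chromosomes. The exceptions were chromosome 6 with 281 members and 289 shared peaks, chromosome 7 with 274 and 366, and chromosome 21 with 90 and 122. The ratio was highest on chromosome 13, with 143 members and 54 shared peaks. K562 cells have an altered karyotype, and no copy number was measured here, so these densities are not corrected for it.

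**Figure D4:**
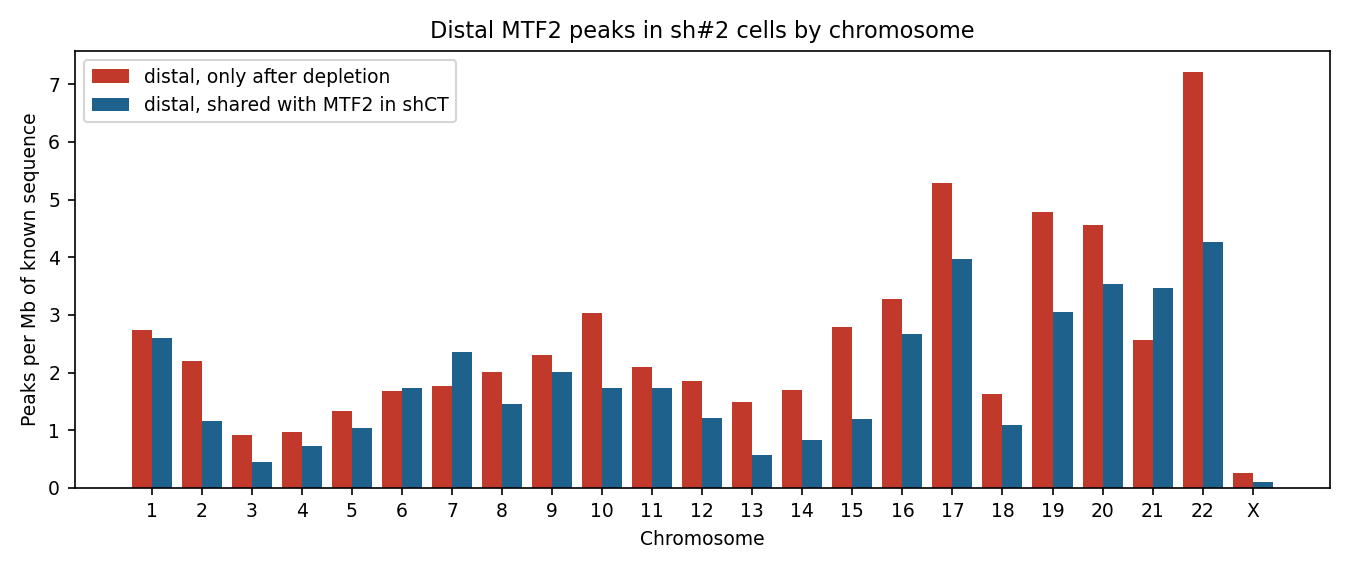
Distal MTF2 peaks of sh#2 cells per Mb of known sequence on each chromosome, with members (left bars) and peaks shared with shCT cells (right bars). Members reach 7.22 per Mb on chromosome 22 and fall to 0.265 on the X chromosome, and chromosomes 6, 7 and 21 have more shared peaks than members.

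Chromosome ends held many of the distal peaks, and fewer of the members than of the shared ones. Within 5 Mb of a chromosome end lay 1433 members (23.9%, interval 22.8 to 24.96%), 35.1% of distal shared peaks (interval 33.7 to 36.5%) and 18.7% of promoter peaks found only after depletion, in 7.58% of the genome. Within 2 Mb the shares were 8.74% of the members and 15.2% of the distal shared peaks, in 3.03% of the genome.

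The members also gathered in clusters. Joined where gaps were under 50 kb, they formed 2620 clusters, of which 1382 were single members (23.01% of all), while 281 clusters of 5 or more held 2155 members (35.9%). Of 3053 bins of 1 Mb, 1131 (37.0%) held a member, and 207 bins (6.78%) held as many as all the rest together. The clusters named here were picked for their members, which by the rule meet no shCT peak. More sh#2 than shCT peaks in them therefore follows in part from the choice and is not a finding. The largest cluster, of 27 members, spanned 324 kb at chr13:112022389-112346366, with TEX29 the nearest protein-coding gene. This span had 33 MTF2 peaks in sh#2 cells, against 6 MTF2 peaks and 0 PHF19 peaks in shCT cells, and the scores of its members ran from 50.6 to 231 with a median of 67.9. The densest of the 3 largest, chr8:142540055-142736303, held 20 members that covered 72.8 kb, or 37.1% of its span, near C8orf90, with a median score of 135. It had 23 MTF2 peaks in sh#2 cells, against 3 MTF2 peaks and 0 PHF19 peaks in shCT cells. The third, chr5:178566384-178797121, held 17 members at ADAMTS2, which encodes an enzyme that trims procollagen, with 21 MTF2 peaks in sh#2 cells, against 5 MTF2 peaks and 1 PHF19 peak in shCT cells. Clusters with the same number of members lay near CUX2 and near PREX1 and ARFGEF2.

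The 5 genes with most members in their body were DLGAP2, TAFA5, SORCS2, CAMTA1 and RBFOX3. Since they were picked for their members, more sh#2 than shCT peaks in them is in part the choice itself. The same goes for the genes named by list below. DLGAP2, which encodes a scaffold of the postsynaptic density (chr8:687628-1656642), held 30 members, and MTF2 peaks covered 282 kb of it in sh#2 cells, against 146 kb in shCT cells. TAFA5, which encodes a secreted brain protein (chr22:48885365-49246724), held 21 members. It had 28 MTF2 peaks over 53.0 kb in sh#2 cells, against 5 MTF2 peaks over 6.75 kb and no PHF19 peak in shCT cells. SORCS2, a receptor of the sortilin family in neurons (chr4:7194265-7744563), held 21 members, with 44 MTF2 peaks over 208 kb in sh#2 cells, against 27 over 56.5 kb in shCT cells. CAMTA1 and RBFOX3, a neuronal splicing factor known as NeuN, held 20 members each. MTF2 peaks covered 341 kb of CAMTA1 in sh#2 cells against 155 kb in shCT cells, and 239 kb of RBFOX3 against 123 kb. The members of DLGAP2, CAMTA1 and RBFOX3 lay in bodies that held 71, 56 and 43 MTF2 peaks in shCT cells. Over the whole lists the covered lengths were 63.2 Mb in sh#2 cells and 29.0 Mb in shCT cells, so a larger covered length was not particular to these genes. NTN1, outside the 5 genes with most members and chosen after its values were seen, had the fewest MTF2 peaks in shCT cells among the 20 genes with most members. It held 14 members and 16 MTF2 peaks over 38.6 kb in sh#2 cells, against 1 peak of 1.62 kb in shCT cells.

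**Figure D5:**
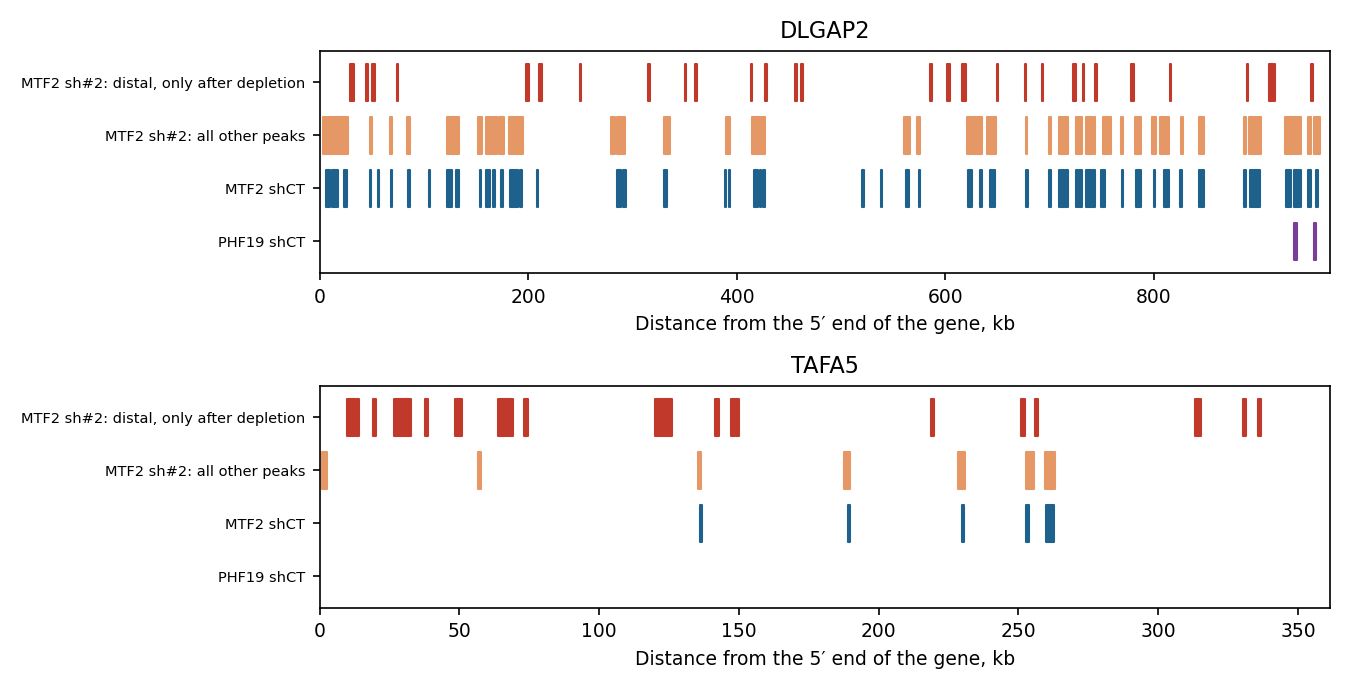
Peaks along DLGAP2 (top) and TAFA5 (bottom), drawn to scale against the distance in kb from the 5′ end of the gene. Rows show, from the top, the members, the other MTF2 peaks of sh#2 cells, the MTF2 peaks of shCT cells and the PHF19 peaks of shCT cells, and in DLGAP2 the 30 members lie between 71 control MTF2 peaks whereas TAFA5 has 5.

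Few genes held members at all, and many of those also held shared peaks. Of 20098 protein-coding genes, 1244 (6.19%) held at least 1 member in the body, and 157 held 5 or more. Of the 1244, 45.2% also held a distal shared peak, and these made up 62.6% of the 898 genes that held one. Genes with members were long, with a median of 87.6 kb against 27.3 kb over all protein-coding genes, and 46.0% of them reached 100 kb against 18.2% of all. The part of gene length in these counts was not tested.

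Read against that background of 6.19%, the gene lists divided into those with members and those with none. Of 3660 protein-coding genes of at least 100 kb, 572 held a member, so this background understates the share in long genes. The lists were chosen with earlier results of these data known. Ion channel and synaptic genes had the largest share, with members in 16 of 40 (40%) and 94 members in all, at a median gene length of 99.4 kb. DLGAP2 held 30 of these, SHANK2, another postsynaptic scaffold, 14, and CACNA1B, a presynaptic calcium channel subunit, 11. Wnt ligands, receptors and modulators had members in 14 of 63 (22.2%), 33 in all, at a median length of 47.7 kb. TCF7L1, a transcription factor at the end of the Wnt pathway, held 9, the ligand WNT7B 6 and RSPO4, an R-spondin that enhances Wnt signaling, 3. TCF7L1 had 16 MTF2 peaks in sh#2 cells, against 11 MTF2 peaks and 3 PHF19 peaks in shCT cells. WNT7B had 12 MTF2 peaks in sh#2 cells and 7 in shCT cells. Developmental transcription factors outside the HOX clusters had members in 8 of 93 (8.60%), at a median length of 5.49 kb. Among them PAX5 held 6, PAX2 held 5 and PAX7 held 4. Peaks shared with shCT, promoter ones included, were held by 45 of these 93 genes, 29 of the 63 Wnt genes and 26 of the 40 ion channel and synaptic genes, against 2568 of 20098 protein-coding genes.

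Of the 12 lists, 6 held no member. These lists are small, and a share of 6.19%, as over all protein-coding genes, would come to few genes in each. None of the 22 erythroid transcription factors, the 11 globin genes with AHSP, the 13 PRC2 subunits, the 21 PRC1 subunits, the 39 HOX genes and the 16 genes of BCR-ABL and STAT5 signaling held a member. The median gene length was 59.8 kb in the PRC2 list and 88.5 kb in the BCR-ABL and STAT5 list, against 3.93 kb in the globin list and 4.22 kb in the HOX list. Since a member lies more than 2.5 kb from every start, genes as short as these globin and HOX genes left little room for one. How far the rule accounts for their lack of members was not tested, and that lack is not read here as a finding about binding. The developmental transcription factors outside the HOX clusters, at a median of 5.49 kb, had members in 8 of 93. The median length was 29.1 kb in the list of erythroid transcription factors and 48.3 kb in the PRC1 list, which held none. A mean normalized count of at least 10 in the RNA libraries was held by 13 of 13 PRC2 and 21 of 21 PRC1 genes. The same held for 22 of 22 erythroid transcription factors and 16 of 16 BCR-ABL and STAT5 genes. In the lists of short genes it held for 10 of 11 globin genes with AHSP and 16 of 39 HOX genes. Such a mean was held by 35 of 38 red cell membrane and surface genes, 31 of 63 Wnt genes and 11 of 40 ion channel and synaptic genes, against 12624 of 19026 protein-coding genes. Of the 39 HOX genes, 9 held a promoter peak found only after depletion and 18 a peak shared with shCT, against 1627 and 2568 of 20098 protein-coding genes. Red cell membrane and surface genes had members in 3 of 38 (7.89%). ANK1, which encodes erythrocyte ankyrin, held 4, and SPTB, erythroid beta-spectrin, and ADD2, beta-adducin, held 1 each. Stem and progenitor transcription factors had members in 2 of 17 (11.8%), with 4 in RUNX1, a master regulator of blood stem cells, and 2 in the ETS factor ERG. RUNX1 had 5 MTF2 peaks in sh#2 cells, against 1 MTF2 peak and 1 PHF19 peak in shCT cells. Of 19 megakaryocyte and platelet genes placed, only VWF, the von Willebrand factor gene, had members, 9 of its 11 MTF2 peaks in sh#2 cells, against 2 MTF2 peaks in shCT cells. No comparison between lists was tested.

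Most genes with members were little expressed in these cells. Expression was taken from the authors' mean normalized count over the 6 RNA libraries of shCT, sh#1 and sh#2 cells, a single value per gene that cannot show a change between them. A mean of at least 10 was reached by 441 of 1195 protein-coding genes with a member (36.9%, interval 34.2 to 39.7%), against 12624 of 19026 protein-coding genes (66.4%, interval 65.7 to 67.02%). Among genes of at least 100 kb it was reached by 242 of 547 with a member (44.2%, interval 40.03 to 48.5%) and by 2134 of 2972 without one (71.8%, interval 70.1 to 73.4%). Genes with 5 or more members reached it in 50 of 154 (32.5%, interval 25.2 to 40.5%). Genes with a distal shared peak were at a like level, 315 of 860 (36.6%, interval 33.4 to 39.9%). Per kb of exon, the median of the mean count was 0.584 in genes with a member and 37.7 over all protein-coding genes.

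The named genes covered both ends of that range. DLGAP2 had a mean normalized count of 2.96 and RBFOX3 one of 0.885, while TAFA5 and SORCS2 were listed at 0. CAMTA1 was the exception among the 5, with a mean normalized count of 882. The red cell genes ANK1, ADD2 and SPTB had 7220, 5544 and 4176, and RUNX1 had 911, while ERG had 1.15 and VWF 16.2. Of the markers that check the cell type, all 11 of K562, among them the embryonic and fetal globins, GATA1 and KLF1, had a mean of at least 10 (632 to 171752). Of 8 markers of other blood cells 4 did, up to 962 for CD3D, a T cell receptor chain, and of 4 markers outside blood 1 did, at 10.2.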

How the data were processed

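K562 cells had been profiled by ChIP-seq (6 libraries) and RNA-seq (6 libraries, 2 per group), and samples were grouped by their labels. The ChIP-seq reads were mapped by the authors to hg19 plus dm3 with Bowtie, which kept unique matches. The authors called peaks on each library against a control sample, with MACS at a shift size of 100 bp. Peak names in the sh#2 MTF2 list also carry the tag igg. For RNA-seq the authors used TopHat on hg19 and DESeq2, with tool versions not given in the sources used here. The deposited lists give each peak a position, counted from 0 and printed from 1, and a score, which was compared only within its list. The PHF19 list was used whole, since the study's minimum of 70 tags could not be applied. The deposited expression table gives a mean normalized count per gene, treated as a score. Its fold changes, standard errors, statistics and p-values hold the authors' comparison and were not used. PHF19 ChIP of the depleted cells and the IgG ChIP stayed out, and no value of PHF19 per library was at hand to check the depletion.

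Overlaps (at least 1 bp), distances, composition and motifs were computed with numpy 2.4.6, scipy 1.17.1 and pandas 2.3.3 (Python 3.11.15) on GRCh37, the assembly of hg19, with GENCODE 44 lifted to that build. Figures were drawn with matplotlib 3.10.9. A gene held a member when they shared a base. Of the 27348 genes that table lists, 24281 were matched, 1024 through RefSeq synonyms. Tested on simulated data, 2000 of 2000 distances and 50 of 50 planted motifs were right. Regions and genes named were the 5 members with the highest score, the 5 widest, the 3 largest clusters, the 5 genes with most members and up to 3 genes per list. The members and lists were chosen with earlier results of these data known. Alternatives tried were other overlaps, distances, windows, score minima, gene assignments and expression minima. Depth per library is unknown.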

Additional observations from a re-analysis of the deposited data

How the results depend on the processing

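No paired analysis was possible because each ChIP condition had 1 library, and the shared replicate numbers of the RNA libraries belong to a table that gives no value per library. The count of 6005 members was within 1.5 times under 6 of the 9 other definitions tried (4941 to 7060). It fell to 3856 with peaks over 5 kb from any shCT peak, to 3533 with peaks over 10 kb from a transcript start and to 1416 with peaks at or above the median score of the list. The share of members within 10 kb of an MTF2 peak of shCT cells, 47.2%, was 41.4% between centres and 51.6% among members at or above the median score. The median GC content, 50.3%, was 49.5% over whole peaks, 49.9% in the central 1 kb and 51.7% among members at or above the median score, where the CpG ratio was 0.303 instead of 0.288. The 1778 genes of any type with a member became 4891 when each member was given to the nearest transcript start. The share of the genes with a mean count of at least 10, 35.8%, became 12.3% at a minimum of 100, 85.0% above 0 and 39.0% by the nearest start. Peaks were called once per library and no tag counts or signal were used here, so whether a peak missing from an shCT list lay below that library's threshold was not tested, and neither depth nor the spread between libraries is known.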
